A study of Homo sapiens with 25 samples.

Results

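The 9 genes described here encode the enzymes that make serine and pass its carbon into the folate cycle: PHGDH, PSAT1 and PSPH for serine synthesis, SHMT1 and SHMT2 for the conversion of serine to glycine, and MTHFD1, MTHFD1L, MTHFD2 and ALDH1L2 for the handling of the folate-bound carbon. They were taken by gene symbol from a table of 31919 genes, and the rule that lists them uses no measured value, though it was written with earlier results of these data known. All 9 were found, and 8 of them passed the filter on low values that kept 18799 genes for testing, which asked for a value of 10 or more in 2 or more libraries. ALDH1L2 did not pass. RNA was sequenced from DND-41, an established human T-cell leukaemia line, cultured in medium with 100%, 50%, 25%, 12.5% or no histidine and collected on day 6 or day 9. The days are those of the sample labels, while the series text names days 3 and 6. All cells were of this 1 line, and no genetic change or drug is named in the labels. Day 6 had 3 libraries in each of the groups at 100%, 50%, 12.5% and without histidine, and the 25% group had 2. Day 9 had 3 in each of the groups at 100%, 25% and 12.5% and 2 in the 50% group. By its sample titles the group without histidine was collected on day 6 only. Its replicate 1 carries day 9 in its time label and was kept at day 6. Group values are mean ± SD of normalized counts. Where groups of 2 or 3 libraries are said not to overlap, this describes them and is no test. The share of all genes so separated was not counted. Changes are on the log2(normalized count + 1) scale, which understates the change of low genes, with limma's moderated test and Benjamini-Hochberg adjustment over all 18799 genes.

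Serine is made from a glycolytic intermediate in successive steps by PHGDH, PSAT1 and PSPH. Serine hydroxymethyltransferase, SHMT2 in mitochondria and SHMT1 in the cytosol, moves a carbon from serine to tetrahydrofolate, and the MTHFD enzymes interconvert the oxidation states of that carbon. In dividing cells the mitochondrial arm mostly exports the carbon as formate, which cytosolic MTHFD1 returns to folate for the synthesis of purines and thymidylate. Histidine is tied to this cycle, because its breakdown in liver passes a carbon group to tetrahydrofolate, and several of these genes are known targets of ATF4, a transcription factor that responds to amino acid shortage.

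The summed normalized counts of a library ranged from 13.6 M to 16.1 M, and the read depth behind them is unknown. On day 6 the sums at 100% were 15.58, 15.44 and 15.32 M in replicates 1 to 3. Those at 12.5% (13.57, 14.04 and 14.83 M) and without histidine (13.65, 14.96 and 14.54 M) were all lower. The part of this difference in the changes below was not tested. Of 8 T-lineage markers 7 had a median of at least 10, among them CD3D (4089 to 8457) and CD3E (11530.2 to 18477), and PTCRA was near 0 (0 to 8.14). Of the other lists, B lineage had 1 of 3 markers measured at a median of 10 or more (EBF1), myeloid 1 of 5 (CD68), epithelial 0 of 4, fibroblast 0 of 3 and erythroid 0 of 2. The epithelial markers KRT8, KRT18 and KRT19 added up to more than 100 in 6 of 25 libraries: replicates 1 and 2 at 100% on day 6, replicates 1 and 2 at 50% on day 6, and replicates 1 and 3 at 25% on day 9. Their sum reached 1406 there and stayed between 0 and 60.3 in the others, while EPCAM was at 0 in 17 of the 25. The part of these libraries in the results was not tested beyond leaving them out. Leaving them out keeps 1 control on day 6, whose spread is then borrowed from the remaining groups. Whether replicates came from separate cultures is not in the labels. The p-values therefore speak for the variation among these libraries alone, and it may be technical. Normalized counts are relative, so fewer cells and less RNA per cell cannot be told apart.

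The first comparison asked how each gene moved as histidine was lowered. MTHFD1, the cytosolic enzyme that carries several folate activities in one chain, fell most and fell on both days, and SHMT1 fell without histidine. The mitochondrial enzyme MTHFD2 did not pass the test at any histidine level, and PHGDH and PSPH were not lowered beyond the spread at any level. At 50% histidine no member passed in limma's test on either day, and none had an unadjusted p under 0.05. Over all genes 0% passed at 50% on day 6 (695 had an unadjusted p under 0.05) and 0.00532% on day 9 (906 had an unadjusted p under 0.05). At 25% on day 6, 1 of 8 members rose and none fell, where 13.7% of all genes passed (6.79% higher, 6.92% lower). At 25% on day 9, 2 of 8 fell and none rose, where 18.2% passed (9.4% higher, 8.76% lower). At 12.5% on day 6, 3 of 8 fell and none rose, where 27% passed (11.7% higher, 15.3% lower). Of those genes 43.3% were higher, and after upper-quartile rescaling 54.5%, with the median change of all genes then at 0.12. At 12.5% on day 9, 1 of 8 fell and none rose, where 20.8% passed (9.35% higher, 11.5% lower). Without histidine, 4 of 8 fell and 1 rose, where 29.8% passed (13.3% higher, 16.5% lower). An unadjusted p under 0.05 was reached by 4 of 8 at 25% on day 6 (25.8% of all genes), 6 of 8 at 25% on day 9 (29.2%), 4 of 8 at 12.5% on day 6 (37.3%), 2 of 8 at 12.5% on day 9 (32.4%), 5 of 8 without histidine (39.3%) and 5 of 8 between days at 100% (15.6%).

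**Figure D1:**
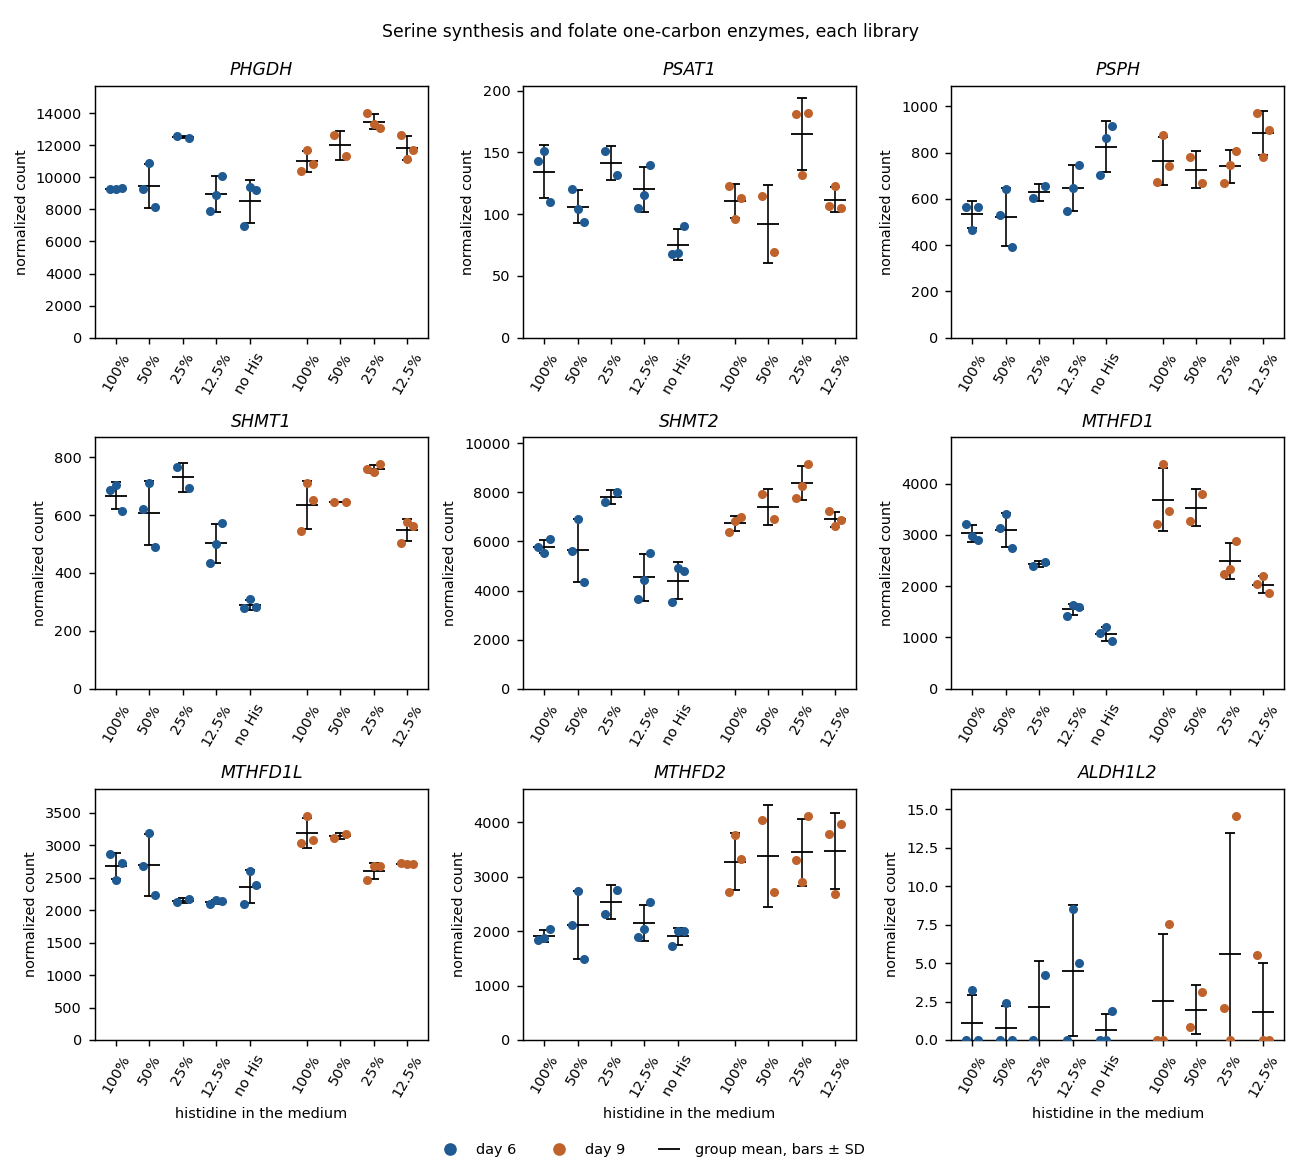
Normalized counts of the 9 genes (vertical axes, each starting at 0) in every library, by histidine level and day. Points are libraries, horizontal marks group means and bars ± SD. All MTHFD1 libraries at 25% histidine and less lie under every control of the same day, SHMT1 is lowest without histidine, and ALDH1L2 is at most 14.6.

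Against full medium of the same day, the share of members that passed was above the background without histidine (5 of 8). It was nearer to the background at the other histidine levels. The share was also above it for none against 12.5% (3 of 8, 15.3% of all genes) and between days at 100% (1 of 8, 2.17%). With 8 genes these counts were not tested, and nothing particular to the set is read from them. The median log2 change of the 8 was -0.25 at 12.5% on day 6 and -0.30 without histidine, beside 0.04 and 0.03 over all genes tested. The median for 12.5% on day 9 was 0.03, beside 0.03 over all genes. At 25% it was 0.19 on day 6 and 0.17 on day 9, beside 0.000965 and 0.003465 over all genes. Without the libraries high in keratin the members that passed on day 6 were 0 of 8 at 25% (4.97% of the 18433 genes then tested), 1 at 12.5% (13.5%) and 2 without histidine (17.6%). On day 9 they were 1 at 25% (6.75%) and 1 at 12.5% (19.8%). The day by histidine difference passed for no member at 25% or 12.5%, and none had an unadjusted p under 0.05 (1034 and 1887 of all genes did). Over all genes 0.00532% passed at 25% and 0.0638% at 12.5% (0.0426% higher, 0.0213% lower). The closest was SHMT2 at 12.5% (difference 0.41 on the log2 scale, unadjusted p = 0.0583, limma adjusted p = 0.511).

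Serine synthesis starts at PHGDH, which oxidises 3-phosphoglycerate and commits carbon to the pathway. PHGDH (chromosome 1, 119648411 to 119744226 in GENCODE 29 on GRCh38) was at 9287, 9259.6 and 9359 normalized counts in replicates 1 to 3 at 100% on day 6 and at 12584 and 12489 at 25%. The groups did not overlap, and the rise was by 0.43 ± 0.12 SE on the log2 scale (1.35-fold, limma adjusted p = 0.0207). On day 9 the 25% libraries, at 14013, 13329.5 and 13104, also lay above the 100% libraries, at 10409, 11727 and 10851, but the change of 0.30 ± 0.11 SE did not pass (adjusted p = 0.0676). It passed after upper-quartile rescaling (0.0226), quantile normalization (0.0186), with library weights (0.00904) and in a fit on the compared groups (0.0106). The call on day 6 ended without 100% replicate 1 (adjusted p = 0.0506) or 2 (0.051), without either 25% library (0.121 and 0.113) and without the libraries high in keratin (0.196), with the change between 0.42 and 0.44 in each.

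Below 25% no PHGDH change passed, which does not show that its level was that of full medium. Its log2 change was -0.06 at 12.5% on day 6, with a 95% interval from -0.29 to 0.17, and -0.14 without histidine, from -0.37 to 0.09. The order of the group means on day 6 was thus 25%, 50%, 100%, 12.5% and none, and of these only 25% stood apart from 100% beyond the spread. At 12.5% on day 9 the change was 0.11, which passed under quantile normalization only (0.21, adjusted p = 0.0357).

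PSAT1, the aminotransferase of the next step, was low in this line. PSAT1 (chromosome 9, 78297143 to 78330093) ranged from 67.9 to 182 normalized counts over the 25 libraries. Without histidine its libraries were at 67.9, 68.3 and 90 normalized counts, below each of the 143, 151 and 109.9 at 100% on day 6. The fall was by 0.83 on the log2 scale (± 0.20 SE, 1.77-fold, adjusted p = 0.00249), and it was -0.55 and did not pass (adjusted p = 0.221) without the libraries high in keratin. Against 12.5% on the same day (105, 116 and 139.6) PSAT1 was also lower without histidine, by -0.67 ± 0.20 SE (adjusted p = 0.0244). That call ended without 12.5% replicate 2 (adjusted p = 0.0585) or 3 (0.0964), without no-histidine replicate 1 (0.0684) or 2 (0.0956) and in a fit on the compared groups (0.0716).

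At 25% on day 9 the PSAT1 libraries, at 182, 132 and 182 normalized counts, lay above the 100% libraries (123, 96 and 113). The change of 0.57 ± 0.20 SE narrowly missed the threshold (adjusted p = 0.0505), and it passed with a filter at 50 (0.0364), after upper-quartile rescaling (0.0403) and without 25% replicate 2 (0.72, 0.0271). GENCODE 29 names 4 pseudogenes after PSAT1, 7 after MTHFD2 and 1 each after PSPH, SHMT1 and MTHFD1. Reads that such copies share may be split between them, so the levels of these 5 genes carry that uncertainty. SHMT1P1, the copy measured here, was between 0 and 9.52 normalized counts, with a median of 0.

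PSPH, the phosphatase that releases serine, moved the other way from PSAT1 without histidine. PSPH (chromosome 7, 56011051 to 56051604) had 701, 865 and 913 normalized counts there against 565, 467 and 566 at 100% on day 6. All 3 were above all controls, with a rise of 0.63 ± 0.16 SE on the log2 scale (1.55-fold, adjusted p = 0.00313) that did not pass without the libraries high in keratin (0.54, adjusted p = 0.0729). At 12.5% the log2 changes were 0.27 on day 6 and 0.21 on day 9 and did not pass. In full medium PSPH was at 671, 877 and 742 normalized counts on day 9, above each day 6 library, with a change of 0.52 ± 0.16 SE that missed the threshold (adjusted p = 0.0831) and passed with library weights (0.015).

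The serine hydroxymethyltransferases were compared next. SHMT1, the cytosolic form (chromosome 17, 18327860 to 18363563), had 686, 703 and 613 normalized counts at 100% on day 6, 435, 501 and 571 at 12.5%, and 279, 311 and 282 without histidine. The 3 groups did not overlap. SHMT1 fell by 1.20 on the log2 scale without histidine (± 0.12 SE, 2.29-fold, adjusted p = 7.92e-08), and 6.07% of all genes tested had a lower value in that comparison. Between 12.5% and none it fell by 0.78 (± 0.12 SE, adjusted p = 0.000103). These calls held under every alternative run, including the fit without the libraries high in keratin.

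At 12.5% on day 6 the SHMT1 fall was by 0.42 (± 0.12 SE, adjusted p = 0.0151). It did not pass without 100% replicate 1 (-0.39, adjusted p = 0.0516) or 2 (-0.38, 0.0587), without 12.5% replicate 1 (-0.32, 0.102) or without the libraries high in keratin (-0.29, 0.287). On day 9 at 12.5% SHMT1 had 504, 575 and 563 normalized counts against 545, 710.1 and 652, which overlap, and the change of -0.21 did not pass (adjusted p = 0.259). At 25% on day 9 its libraries, at 758, 748 and 775, all lay above those at 100%, with a change of 0.27 that did not pass (adjusted p = 0.154).

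SHMT2, the mitochondrial form (chromosome 12, 57229327 to 57234935), followed PHGDH across libraries. It had 5764, 5529 and 6087 normalized counts at 100% on day 6, 7593 and 8019 at 25%, 3639, 4433 and 5534 at 12.5%, and 3523, 4904 and 4783 without histidine. The 25% libraries were above every control, the no-histidine libraries were below every control, and those at 12.5% overlapped them by 1 library. SHMT2 fell by 0.41 without histidine (± 0.15 SE, 1.33-fold, adjusted p = 0.0353). That call ended without any 1 of the 100% libraries (adjusted p = 0.0751, 0.0526 and 0.106 for replicates 1 to 3), without no-histidine replicate 1 (-0.26, 0.224), under quantile normalization (0.0605), with no mean trend (0.0684) and without the libraries high in keratin (0.101). The no-histidine replicate 1 is the library that carries day 6 in its title and day 9 in its time label.

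At 25% the SHMT2 changes were 0.43 ± 0.16 SE on day 6 (adjusted p = 0.0838) and 0.31 ± 0.15 SE on day 9 (adjusted p = 0.151). Neither passed. The groups did not overlap on either day, which is a description and no test. On day 6 the change passed after upper-quartile rescaling (0.0365), quantile normalization (0.0333), with library weights (0.011) and in a fit on the compared groups (0.00236), and on day 9 with library weights (0.0469) and on the compared groups (0.0136). At 12.5% on day 6 the change was -0.37 ± 0.15 SE (adjusted p = 0.0606). It passed without 12.5% replicate 3 (-0.53, 0.0104), with library weights (0.00589) and with a filter at 50 (0.0478). On day 9 at 12.5% it was 0.04, with a 95% interval from -0.26 to 0.34.

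Within mitochondria, MTHFD2 oxidises the folate-bound carbon and MTHFD1L releases it as formate. MTHFD2 (chromosome 2, 74198562 to 74217565) had 1835, 1868 and 2042 normalized counts at 100% on day 6 and 1719, 1997 and 1996 without histidine. These overlap, and the change was -0.01 on the log2 scale, with a 95% interval from -0.41 to 0.39. At 12.5% it was 0.16 on day 6 (-0.24 to 0.55) and 0.08 on day 9 (-0.32 to 0.47). At 25% on day 6 both libraries (2313 and 2750.2) were above every control, with a change of 0.40 that did not pass (adjusted p = 0.254) except in a fit on the compared groups (0.0129). The intervals do not show that MTHFD2 was unaffected.

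MTHFD2 differed more by day than by histidine. In full medium it had 2726, 3768 and 3323 normalized counts on day 9, all above the day 6 libraries. The rise was by 0.76 ± 0.19 SE (1.70-fold, adjusted p = 0.0363), and it was the only 1 of the 8 members to pass between days, where 2.17% of all genes did (1.1% higher, 1.07% lower). Of the genes that passed 50.5% were higher on day 9, and after upper-quartile rescaling 31.8%. It did not pass without 100% replicate 1 (0.73, adjusted p = 0.106), 2 (0.74, 0.13) or 3 (0.81, 0.0727) of day 6, without replicate 2 (0.65, 0.182) or 3 (0.74, 0.103) of day 9, with no mean trend (0.088) or without the libraries high in keratin (0.67, 0.37). Each day's libraries stand together with their time of collection, so day cannot be told apart from anything else that differed between the collections.

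MTHFD1L (chromosome 6, 150865549 to 151101887) was slightly lower at 25% and 12.5% histidine. It had 2867, 2466 and 2723 normalized counts at 100% on day 6, 2119.8 and 2178 at 25%, and 2092, 2151 and 2143 at 12.5%. On day 9 it had 3029, 3459 and 3089 at 100%, 2463, 2677 and 2685 at 25%, and 2726, 2706 and 2708 at 12.5%. On each day every library at 25% and 12.5% was below every control. The fall at 12.5% on day 6 was by 0.33 (± 0.10 SE, adjusted p = 0.0154) and ended without 100% replicate 1 (-0.28, 0.076) or the libraries high in keratin (-0.36, 0.0572). The fall at 25% on day 9 was by 0.29 (± 0.10 SE, adjusted p = 0.0455), and it did not pass without any 1 of the 6 libraries compared (between -0.33 and -0.23, adjusted p from 0.0545 to 0.188), with no filter (0.0747), with no mean trend (0.0783) or without the libraries high in keratin (0.257).

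The other MTHFD1L changes against full medium did not pass: -0.32 at 25% on day 6 (adjusted p = 0.06), -0.23 at 12.5% on day 9 (0.106) and -0.19 without histidine (0.17). The first passed with a filter at 50 (0.041), after upper-quartile rescaling (0.0275) or quantile normalization (0.0132), with library weights (0.0149), on the compared groups (0.0197) and without 100% replicate 2 (0.0475). Without histidine the libraries were at 2091, 2605 and 2392 normalized counts, and they overlapped the controls.

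ALDH1L2, the mitochondrial enzyme that oxidises formyl-folate to carbon dioxide (chromosome 12, 105019784 to 105084577), was listed at 0 in 13 of 25 libraries. Its highest value was 14.6 normalized counts, in 25% replicate 3 of day 9, and the next were 8.5 in 12.5% replicate 2 of day 6 and 7.55 in 100% replicate 3 of day 9. It was thus at or near 0 at every histidine level, and no fold change is given.

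The largest response was that of MTHFD1, which takes up formate in the cytosol and supplies the folate forms used for purine and thymidylate synthesis. MTHFD1 (chromosome 14, 64388031 to 64463457) had 3213, 2975 and 2903 normalized counts at 100% on day 6, 3129, 3408 and 2752 at 50%, 2397 and 2468 at 25%, 1428, 1628 and 1589.7 at 12.5%, and 1084, 1205 and 935 without histidine. From 100% to 25%, 12.5% and none, no group of day 6 overlapped the next, while 50% overlapped 100%. On day 9 it had 3206, 4374 and 3462 at 100%, 3276 and 3789 at 50%, 2231, 2338 and 2886 at 25%, and 2037, 2191 and 1861 at 12.5%. There too the 25% and 12.5% libraries did not overlap, and both lay below all controls.

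MTHFD1 fell by 0.97 at 12.5% on day 6 (± 0.12 SE, 1.96-fold, adjusted p = 2.70e-06) and by 1.50 without histidine (± 0.12 SE, 2.83-fold, adjusted p = 1.08e-09). On day 9 it fell by 0.56 at 25% (± 0.12 SE, 1.48-fold, adjusted p = 0.00151) and by 0.85 at 12.5% (± 0.12 SE, 1.80-fold, adjusted p = 1.85e-05). Between 12.5% and none it fell by 0.53 (± 0.12 SE, adjusted p = 0.00336), where 3 of 8 members fell and none rose and 15.3% of all genes passed (7% higher, 8.26% lower). All 5 calls held under every alternative run. At 25% on day 6 the change of -0.32 ± 0.13 SE did not pass (adjusted p = 0.128) except in a fit on the compared groups (0.0127). Of all genes tested, 5.64% had a lower value than MTHFD1 at 12.5% on day 6, 3.58% without histidine and 6.71% at 12.5% on day 9.

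**Figure D2:**
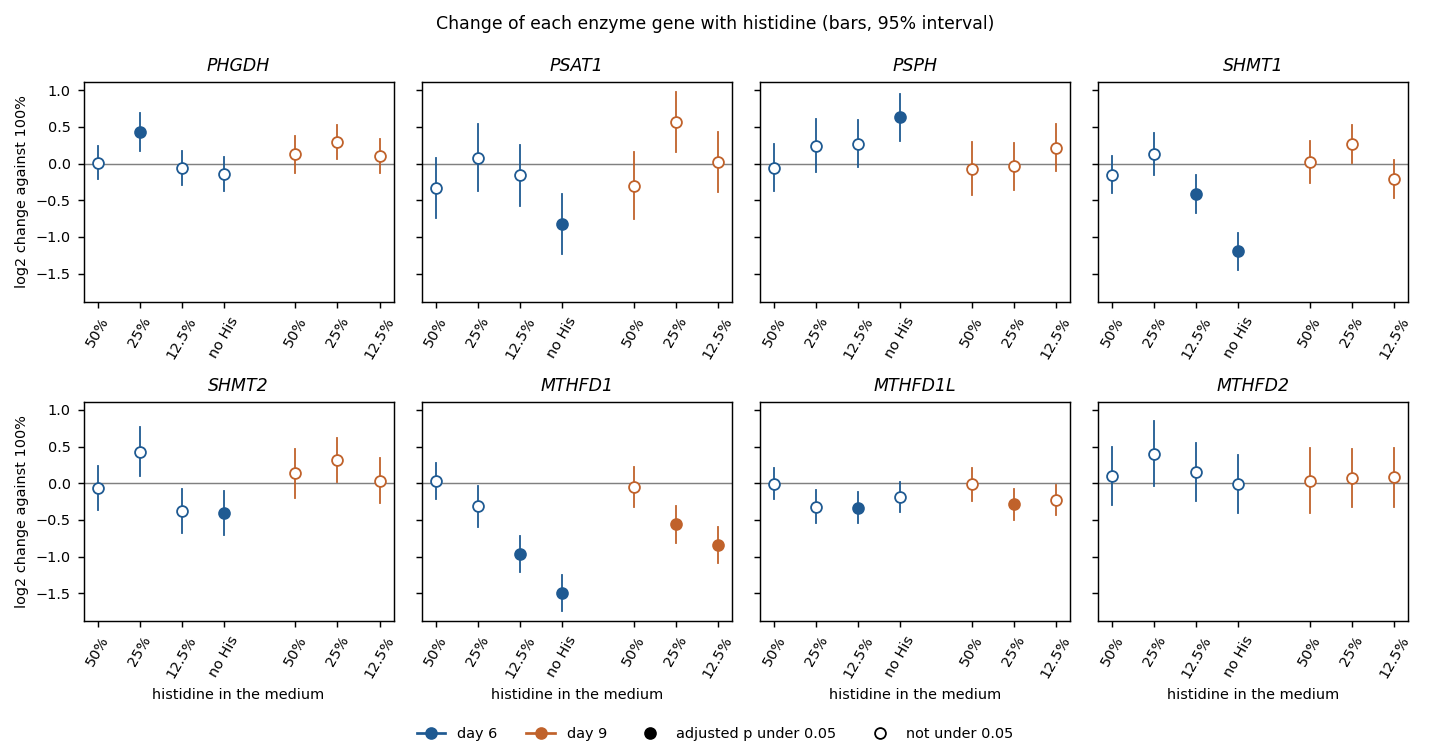
Log2 change (vertical axes) of the 8 tested genes at each histidine level against 100% of the same day. Points are limma estimates, bars 95% intervals, and filled points have an adjusted p under 0.05. MTHFD1 reaches -0.97 and -1.50 on day 6 and -0.85 on day 9, while the intervals of MTHFD2 include 0 at every level.

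Promoter sequence is shown for the members that fell and hold a searched motif, so that the letters can be set beside the values. RefSeq starts on GRCh38.p14 were at hand for 6 of the 9 genes: PHGDH, PSAT1, SHMT1, MTHFD1, MTHFD1L and MTHFD2. The 250 bases before each start were searched on both strands for 3 motifs that were chosen after the values had been seen: TGATGNAA, the composite element bound by ATF4 with C/EBP partners, CACGTG, the E-box bound by MYC and related factors, and CCAAT, bound by NF-Y. CACGTG reads the same on both strands, and the matches found did not overlap each other. Of 35116 promoters of the same length, 3.14% held the first, 6.35% the second and 32% the third.

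CACGTG was found before the starts of MTHFD1 and MTHFD1L, and TGATGNAA before MTHFD1L alone. MTHFD1L has 4 starts in RefSeq, and the matches below are counted from the first listed. The same MTHFD1L matches lie before start 3, and neither motif was found before starts 2 and 4. The background shares above are per promoter, while MTHFD1L had 4 searched. The windows hold 30 bases each, 5′ to 3′ on the plus strand, with the motif in capitals. They are chr14:64388323-64388352, chr6:150866320-150866349 and chr6:150866346-150866375, and the motifs begin at -15, -154 and -129 from the start.
MTHFD1 E-box: tggccagtccctaagCACGTGggttgggtt
MTHFD1L E-box: cacgcccggctcCACGTGcgcagccggccg
MTHFD1L ATF4 element: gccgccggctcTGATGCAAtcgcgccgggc

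CCAAT was found at least once before all 6 genes. It occurred 3 times before PSAT1 and 2 times before SHMT1, and also 2 times before MTHFD2, which passed at no histidine level. Of all promoters 2.93% held at least 3 matches and 9.53% at least 2. The PSAT1 and SHMT1 sequences run from -250 to -20, 231 bases 5′ to 3′ on the strand of the gene, with CCAAT or its reverse ATTGG in capitals. PSAT1 is chr9:78296875-78297105 on the plus strand, and SHMT1 is chr17:18363570-18363800 on the minus strand.
PSAT1: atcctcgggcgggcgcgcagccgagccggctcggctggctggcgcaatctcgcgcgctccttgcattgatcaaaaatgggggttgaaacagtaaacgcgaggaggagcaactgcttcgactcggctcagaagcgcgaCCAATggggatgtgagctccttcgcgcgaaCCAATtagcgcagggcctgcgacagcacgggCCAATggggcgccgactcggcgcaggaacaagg
SHMT1: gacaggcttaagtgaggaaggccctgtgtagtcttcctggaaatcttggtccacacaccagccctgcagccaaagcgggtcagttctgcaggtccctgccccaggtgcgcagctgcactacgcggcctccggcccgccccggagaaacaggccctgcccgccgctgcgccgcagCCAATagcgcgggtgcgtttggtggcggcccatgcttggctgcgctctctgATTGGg

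A match describes letters and not binding. The E-box stands before MTHFD1, which fell 2.83-fold without histidine, and before MTHFD1L, whose change there did not pass. MTHFD1L did pass as lower at 12.5% on day 6 (-0.33) and at 25% on day 9 (-0.29), with the limits given above.

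Within each library the RNA of a mitochondrial enzyme was set against that of its cytosolic counterpart as a log2 ratio. The ratio cancels the scaling of libraries, and enzyme levels and carbon flow in each compartment were not measured. Gene lengths differ, so only changes of the ratio can be read and not its level. The MTHFD2 to MTHFD1 ratio was -0.81, -0.67 and -0.51 in replicates 1 to 3 at 100% on day 6 and 0.40, 0.32 and 0.67 at 12.5%. On day 9 it was -0.23, -0.22 and -0.06 at 100% and 0.89, 0.29 and 1.09 at 12.5%. On each day all 12.5% libraries were above all controls.

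Averaged over days, the MTHFD2 to MTHFD1 ratio was higher at 12.5% by 1.03 on the log2 scale (exact permutation test within days, two-sided p = 0.005, the smallest that its 400 arrangements allow). Within a day it was higher by 1.13 on day 6 and 0.93 on day 9 (exact permutation p = 0.1 on each, the smallest that 3 against 3 allow). Without histidine the ratio was 0.83 ± 0.23 (n = 3). MTHFD1 fell at 12.5% on both days, and MTHFD2 did not pass on either. The ratio uses the MTHFD1 values of the same libraries, so it is no separate evidence of a shift. MTHFD2 was the only mitochondrial enzyme set against MTHFD1. MTHFD1L changed by -0.33 at 12.5% on day 6 and by -0.23 on day 9, and its ratio to MTHFD1 was not taken.

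The SHMT2 to SHMT1 ratio moved less at 12.5%. It was 3.12 ± 0.17 at 100% and 3.16 ± 0.11 at 12.5% on day 6, and 3.41 ± 0.14 and 3.66 ± 0.16 on day 9 (n = 3 each), a mean difference of 0.14 (exact permutation test within days, two-sided p = 0.135). Without 100% replicate 3 of day 6 the difference was 0.19 (exact permutation p = 0.03), the 1 library whose absence brought it past the threshold. Without histidine it was 3.90 ± 0.22 (n = 3), with its lowest library at 3.66, above the highest control of day 6 at 3.31. That group has no day 9 counterpart and was not tested for this ratio.

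**Figure D3:**
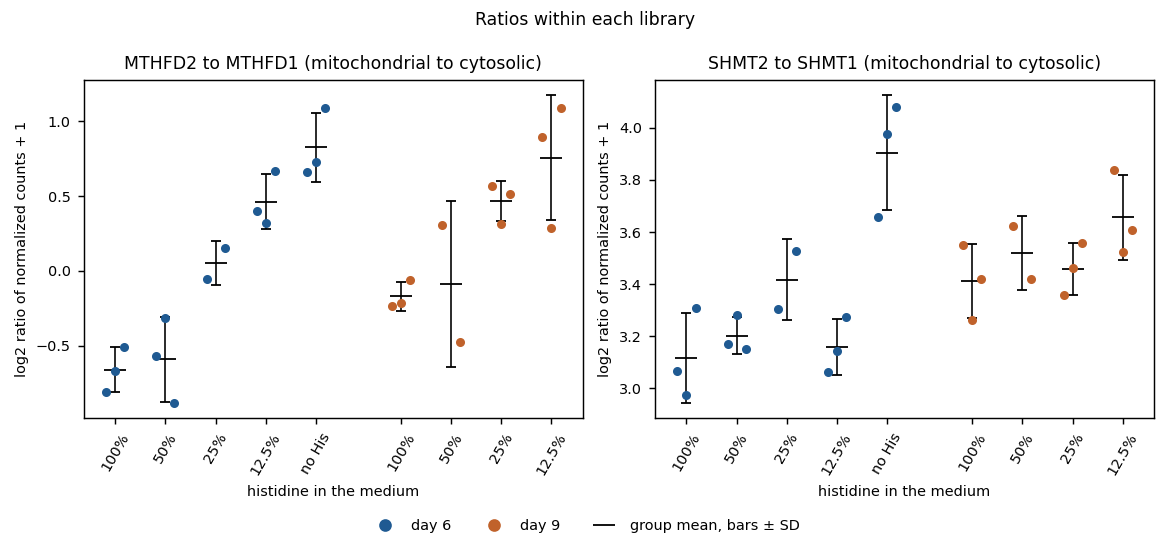
Log2 ratio of normalized counts + 1 (vertical axes) of MTHFD2 to MTHFD1 and of SHMT2 to SHMT1 in each library, by histidine level and day, with group means and bars ± SD. The first ratio is higher at 12.5% than at 100% in every library on each day, and the second is highest without histidine (3.90 ± 0.22). The axes do not start at 0.

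Across the 25 libraries the members fell into unlike patterns. The Pearson correlation of log2 values was 0.951 between PHGDH and SHMT2, 0.839 between PHGDH and MTHFD2, and 0.81 between SHMT1 and MTHFD1. It was -0.171 between PSAT1 and PSPH and -0.28 between PSPH and MTHFD1. These are descriptions over libraries that share groups, days and scaling. Among 10753 genes with a symbol and a mean of at least 50, those most like MTHFD1 were FEN1 (r = 0.977) and MCM3 (0.976), and those most like SHMT1 were ZWINT (0.961) and SPC25 (0.96). The most like PHGDH were DDX39B (0.977) and DTYMK (0.965), and the most like SHMT2 were PSMC3 and MRPS18B (0.966 each). PSAT1 was most like CDKN3 (0.815) and HDGFL3 (0.811), PSPH most like DYNLL1 (0.917) and RPL6 (0.904), MTHFD1L most like KARS1 (0.904), and MTHFD2 most like PLPBP (0.91) and SNRNP40 (0.905).

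Most other genes of the folate and one-carbon list did not pass against full medium, and those that did were lower. Of 15 tested, 6 fell, none rose and 9 did not pass at 12.5% on day 6, where 15.3% of all genes were lower. Without histidine 4 fell, none rose and 11 did not pass (16.5% of all genes lower), and at 12.5% on day 9 the numbers were 5, none and 10 (11.5% lower). The list's medians were -0.31, -0.03 and -0.37. Those counts were not tested, and nothing particular to the list is read from them. The 6 include a gene near the floor, listed at 0 in 7 libraries. MTRR, among the 4 without histidine, belongs to the methionine cycle list as well. Thymidylate synthase TYMS, which uses a folate carbon to make thymidylate, fell from 10781 ± 349 to 2396 ± 215 normalized counts without histidine (log2 change -2.17 ± 0.12 SE, adjusted p = 4.54e-12). At 12.5% on day 9 the TYMS change was -1.13, which passed.

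Folate entry and storage moved less evenly. The reduced folate carrier SLC19A1 fell by 0.72 at 12.5% on day 6 (adjusted p = 1.48e-05), by 0.45 without histidine and by 0.41 at 12.5% on day 9. FPGS, which adds the glutamates that keep folate in the cell, fell by 0.55 at 12.5% on day 6 (adjusted p = 0.00135), which did not pass without the libraries high in keratin (-0.52, 0.0654). Without histidine FPGS was at 1375 ± 288 normalized counts against 1165 ± 87.5 in full medium and did not pass (adjusted p = 0.186). That FPGS change passed without no-histidine replicate 1 (0.40, adjusted p = 0.00603), with library weights (0.0185) and after upper-quartile (0.0407) or quantile scaling (0.048). The mitochondrial folate carrier SLC25A32 fell at 12.5% on day 9 (log2 change -0.77, adjusted p = 0.00684) and had changes of -0.38 and -0.03 at 12.5% and none on day 6 that did not pass. The SLC25A32 call ended without 100% replicate 2 (-0.56, adjusted p = 0.0664) or 12.5% replicate 2 (-0.61, 0.0549) of day 9.

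Genes of serine and glycine use went both ways. Of 13 tested, 2 rose and 3 fell at 12.5% on day 6, where 11.7% of all genes were higher and 15.3% lower. Without histidine 3 rose and 3 fell (13.3% of all genes higher, 16.5% lower). At 12.5% on day 9, 4 rose and 4 fell (9.35% higher, 11.5% lower). These counts were not tested, and nothing particular to the list is read from them. The mitochondrial serine carrier SFXN1 fell by 0.87 without histidine (adjusted p = 2.36e-05), from 1904 ± 360.2 to 1032 ± 65 normalized counts, and by 0.61 and 0.60 at 12.5% on day 6 and day 9. The SFXN1 call at 12.5% on day 6 ended without the libraries high in keratin (adjusted p = 0.0614). Serine racemase SRR fell by 1.05 without histidine (adjusted p = 1.22e-05). SRR also passed as lower at 12.5% on day 6 (180 ± 24.1 normalized counts against 308 ± 37.4 at 100%). Its change at 12.5% on day 9 was -0.08. SPTLC1, a subunit of the enzyme that joins serine to palmitoyl-CoA in sphingolipid synthesis, rose by 0.50 without histidine and by 0.67 at 12.5% on day 9 (adjusted p = 2.91e-05). SDSL, a serine dehydratase homologue, rose from 28.1 ± 10.1 to 72.4 ± 10.4 normalized counts without histidine (log2 change 1.39, adjusted p = 0.00057). That rise did not pass without the libraries high in keratin (0.98). At 12.5% SDSL passed as higher on day 9 (66.3 ± 10.5 normalized counts against 27.0 ± 2.7 at 100%) and did not pass on day 6.

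Of 5 tested genes of the methionine cycle, 1 fell and none rose at 12.5% on each day. Over all genes 15.3% were lower there on day 6 and 11.5% on day 9. Without histidine 2 fell and none rose, where 16.5% of all genes were lower. Such counts were not tested, and MTRR is also counted in the folate list. AHCY, which clears S-adenosylhomocysteine after methylation, was the 1 at 12.5%, with 1862 ± 375 against 3670.5 ± 332 normalized counts on day 6 (log2 change -0.99 ± 0.13 SE, adjusted p = 8.33e-06). MTRR, which reactivates methionine synthase, fell by 0.76 without histidine (adjusted p = 0.018) and had a change of 0.10 at 12.5% on day 6. The MTRR call ended without 100% replicate 3 (adjusted p = 0.052), without no-histidine replicate 2 (-0.47, 0.151) and without the libraries high in keratin (0.112). The AHCY call without histidine (-0.45, adjusted p = 0.0128) ended without 100% replicate 3 (0.0661) or no-histidine replicate 1 (0.0899).

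The genes of histidine breakdown were low. HAL, which takes the first step, was between 0 and 17.9 normalized counts and UROC1 between 0 and 4.41, and neither was tested. AMDHD1 was the only 1 to pass the filter. AMDHD1 was at 49.2, 41.1 and 49.5 normalized counts at 100% on day 6 and at 10.6, 11.1 and 0 without histidine (log2 change -3.19 ± 0.66 SE, adjusted p = 0.000587). The library at 0, replicate 3, carries much of that size: without it the log2 change was -2.00 (adjusted p = 0.00343). At 12.5% its changes of -1.56 on day 6 and -1.36 on day 9 did not pass, though both passed with a pseudocount of 8 (adjusted p = 0.0112 and 0.0472), and the first also on the compared groups (0.00829) and after quantile normalization (0.0425). FTCD, which hands the carbon to tetrahydrofolate, was not found by that symbol among the 31919 genes, so no value is given.

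Because PHGDH, PSAT1, SHMT2 and MTHFD2 are known ATF4 targets, the same list of ATF4 regulators and targets was read beside them. Of 15 tested, 3 rose and 8 fell at 12.5% on day 6, where 11.7% of all genes were higher and 15.3% lower. Without histidine 2 rose and 5 fell (13.3% of all genes higher, 16.5% lower). At 12.5% on day 9, 4 rose and 5 fell (9.35% higher, 11.5% lower). These counts were not tested. ATF4 itself was at 18400.0 ± 76.6 normalized counts at 100% on day 6, 15789.7 ± 1311 at 12.5% and 18870.5 ± 1531 without histidine. Its changes did not pass (-0.22 with adjusted p = 0.0649 at 12.5%, and 0.03 with adjusted p = 0.825 without histidine), and its protein was not measured. At 12.5% the ATF4 change passed with library weights (-0.27, adjusted p = 0.00321) and without 12.5% replicate 3 (-0.29, 0.0255), and without histidine it passed after quantile normalization (0.17, 0.0396).

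TRIB3, a feedback inhibitor of ATF4, fell by 1.24 at 12.5% on day 6 and by 0.70 without histidine (adjusted p = 2.46e-08 and 2.22e-05). ATF5, a related transcription factor, fell by 0.95 and 0.79 in the same comparisons, and the alanine aminotransferase GPT2 fell by 0.78 and fell by 2.63. The smaller GPT2 call ended without 100% replicate 3 (adjusted p = 0.0662), 12.5% replicate 1 (0.0643) or 12.5% replicate 3 (-0.58, 0.111), with library weights (0.0607) and without the libraries high in keratin (0.113). SLC7A11, the cystine importer, rose by 0.89 and 0.97. At 12.5% on day 9 the TRIB3 change was -0.33 (limma adjusted p = 0.031). That call ended without 100% replicate 1 (0.157) or 3 (0.0653) or 12.5% replicate 2 (0.142) or 3 (0.071) of day 9. It also ended with no mean trend (0.0594) and without the libraries high in keratin. The day by histidine difference at 12.5% passed for TRIB3, as higher on day 9, where 0.0638% of all genes passed. For TRIB3 it was not followed under the alternatives. Asparagine synthetase ASNS was low, between 8.92 and 116 normalized counts, and its change at 12.5% on day 6 (1.84, adjusted p = 0.051) did not pass. That ASNS change passed with a pseudocount of 8 (0.048), a filter at 50 (0.0421), upper-quartile rescaling (0.0444), library weights (0.0289), on the compared groups (0.0203), without 100% replicate 2 (2.46, 0.0181) and without the libraries high in keratin (2.83, 0.0228). Without histidine the ASNS change of 1.53 (adjusted p = 0.102) passed without 100% replicate 2 (0.0339), no-histidine replicate 2 (0.0395) or the libraries high in keratin (0.0321). MYC was at 15772 ± 1327 normalized counts at 100% on day 6, 13348 ± 194 at 12.5% (log2 change -0.24, adjusted p = 0.0272) and 15526 ± 1179 without histidine (-0.02, adjusted p = 0.871). The MYC call at 12.5% on day 6 ended without 100% replicate 1 or 3 or any 1 of the 12.5% libraries (adjusted p from 0.0501 to 0.162). It also ended after upper-quartile (0.0995) or quantile scaling (0.365), on the compared groups (0.0622) and without the libraries high in keratin (change of -0.21). At 12.5% on day 9 the MYC change was 0.12 and did not pass (limma adjusted p = 0.301). It passed as higher after quantile normalization (0.22, adjusted p = 0.0376).

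**Figure D4:**
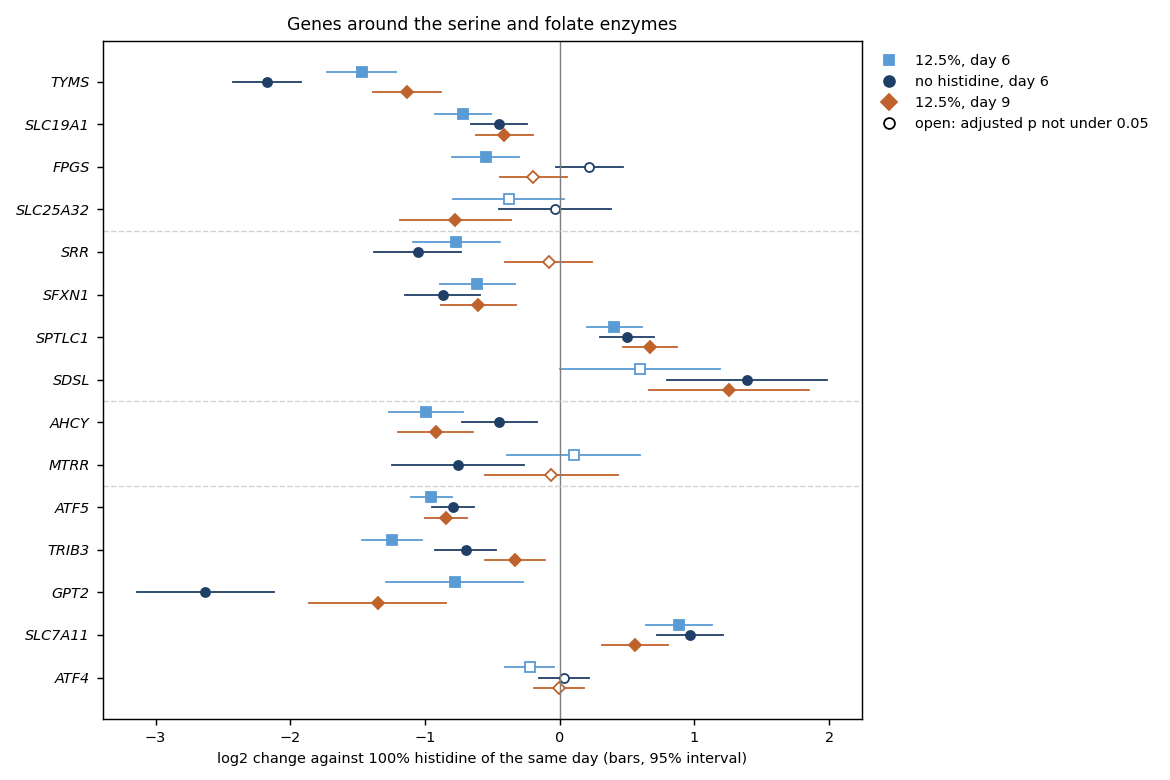
Log2 change against 100% histidine of the same day (horizontal axis) for genes of the folate list (top), serine and glycine list, methionine cycle and ATF4 list (bottom). Squares and circles are 12.5% and no histidine on day 6, diamonds 12.5% on day 9, bars 95% intervals, and open symbols did not pass. TYMS (-2.17) falls without histidine, and SLC7A11 rises in all 3.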

How the data were processed

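The 25 libraries of DND-41 were strand-specific. The deposited signal is 1 normalized count per gene and library, made by the authors with kallisto 0.50.1 and DESeq2 1.44.0 against GRCh38 (FastQC 0.11.9 is listed too), per the submitters' processing notes. For annotation and strand setting, nothing was at hand. Whole reads could not be recovered (37.8% to 76.2% of values below 20 fell within 0.05 of a whole step), so no count test was run.

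Log2 values used a pseudocount of 1 after a filter of 10 or more in 2 or more libraries. The fit was made in R 4.3.3 with limma 3.58.1, its trend option, a mean for every group (16 residual degrees of freedom), two-sided tests and a threshold of 0.05. Ratios were compared by exact permutation. The 95% intervals use limma's moderated error. Coordinates are from GENCODE 29, and figures were drawn with matplotlib 3.10.9.

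A no-histidine library labelled day 9 in its time field and day 6 in its title was kept at day 6. No pairing by replicate number was seen: over 41 same-day pairs with the same number, deviations correlated at -0.128 to 0.0789. With groups of 2 or 3 libraries this cannot exclude a pairing, and the labels do not say. The members and lists were chosen with earlier results of these data known. Genes named are all 9 members, up to 4 per list by adjusted p, and ATF4, ASNS, MYC, TYMS, SLC25A32 and the histidine breakdown genes; 2 genes that the rule also names are not reported here. The alternatives were pseudocounts of 0.5 and 8, no filter and a filter at 50, upper-quartile and quantile scaling, no trend, weighting of libraries, fitting the compared groups alone, the replicate number as a block, leaving out the libraries high in keratin, and leaving out each library.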

Additional observations from a re-analysis of the deposited data

How the results depend on the processing

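Of 16 member results that passed, 7 passed under every alternative run, and of 72 that did not, 11 passed under at least 1. No called member result changed sign (0 of 16). Of 36 results of the other named genes that passed at 12.5% or without histidine, 26 passed under every alternative run, and of 18 that did not, 8 passed under at least 1. The numbers of genes passing, over all genes, moved by more than 1.5 times as follows. With no filter there were 2 at 50% on day 9 and 266 between days. Upper-quartile rescaling gave 2 for the day difference at 25%, and quantile normalization 3 there and 0 at 50% on day 9. With no trend the day differences gave 0 at 25% and 3 at 12.5%. Library weights gave 292 at 50% on day 6, 0 at 50% on day 9, 4967 for none against 12.5%, 1069 between days, and 8 and 133 for the day differences at 25% and 12.5%. Fits on the compared groups gave 0 at 50% on day 9, 1612 for none against 12.5%, and 0 and 1 for the day differences.

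Without the libraries high in keratin, 1 gene passed at 50% on day 6, 917 at 25%, 2482 at 12.5% and 3243 without histidine, where 2577, 5072 and 5611 did with them in the last 3. On day 9, 0 passed at 50% and 1245 at 25% (3415 with them), and 21 between days (408 with them). The day differences gave 0 and 3. The cause was not tested.

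Leaving out 1 library at a time gave 1262 to 2067 genes at 25% on day 6, 1758 to 3310 for none against 12.5%, 0 to 11 at 50% on day 9 and 151 to 332 between days. The day differences gave 0 to 5 at 25% and 2 to 19 at 12.5%. The SHMT2 to SHMT1 ratio difference ranged from 0.0984 to 0.192. The replicate block pairs libraries by replicate number, and whether that number links them is not in the labels. With it 0 genes passed at 50% on day 9 and 4972 at 12.5% on day 6, and no member call changed. Depth could not be read from normalized values, which limits ALDH1L2 and the histidine breakdown genes most.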
